A study of Rattus norvegicus with 44 samples.

Results

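Apoe, Clu, Abca1, Fabp5, Fabp7 and Lpl are 6 genes of lipid transport and lipid handling that glial cells and their precursors use. They were followed in 5 clones of rat neural precursor cells before and after withdrawal of the growth factor FGF2. Each gene was taken from the Affymetrix probe sets whose platform annotation names that gene and no other. This gave 8 probe sets for the 6 genes, of 17547 probe sets with 1 gene and 12749 genes in all. Abca1 and Clu had 2 probe sets each, and the one with the higher mean stood for the gene.

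Each clone is a single clonal line, so it stands for itself and not for a class of cells. The labels call Ctx8 and L2.3 multipotential neural precursors, Ge2 a nonneuronal neural precursor, L2.2 an interneuronal precursor and Ge6 a GABAergic neuronal precursor. At day 0 the cultures grew with FGF2 in DMEM/F12 on poly-lysine and laminin, and at days 3 and 7 they had been in DMEM/F12 with B27, no FGF2 and 0.5% fetal bovine serum, which was added for survival. Serum and withdrawal came together, so that their effects cannot be told apart, and no culture was kept with FGF2 to the later days. Each of the 15 groups of clone and day had 3 sister cultures, except L2.2 at day 0 with 2, because 1 array failed.

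Values are intensities on the linear scale, 1 per probe set and array, and changes are differences in log2 intensity with their standard error (SE) from a limma model over all 44 arrays. A gene was called changed at an adjusted p under 0.05. The median array intensity lay between 24.2 and 28.9, with a highest value of 26.2 at day 0 and a lowest of 26.8 at day 7. The 40th percentile of all intensities, 16.3, is used as a floor: a level near or under it cannot be told from background. The arrays measure whole cultures, so fewer cells of a type and less RNA per cell cannot be told apart.

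Apolipoprotein E and clusterin, also called apolipoprotein J, are the main proteins of the lipoprotein particles that astrocytes secrete. The membrane transporter ABCA1 loads cholesterol and phospholipid onto apolipoprotein E, and its gene is a textbook target of the liver X receptors, which sense oxidised cholesterol. The fatty acid binding proteins FABP5 and FABP7 carry long-chain fatty acids inside the cell, FABP7 being a marker of radial glia, the precursors of neurons and astrocytes. Lipoprotein lipase cuts triglycerides of lipoproteins into fatty acids at the cell surface.

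RefSeq windows around the transcription start (GRCr8 build, 250 bases before to 50 after) were found for 3 of the 6 genes, Abca1, Apoe and Fabp7. Those of Abca1 and Fabp7 are shown because they hold letters that match elements known from work on the human and mouse genes, and because the brighter Abca1 probe set differed widely between clones at day 7 and Fabp7 moved in opposite directions in L2.2 and Ge6. Capitals mark, in Abca1 at chr5:72596424-72596723 on the minus strand, from 5′ to 3′ the E-box CACGTG, the liver X receptor element and the TATA box TATAAA, and in Fabp7 at chr20:37669356-37669655 on the plus strand a nuclear factor I site.
Abca1: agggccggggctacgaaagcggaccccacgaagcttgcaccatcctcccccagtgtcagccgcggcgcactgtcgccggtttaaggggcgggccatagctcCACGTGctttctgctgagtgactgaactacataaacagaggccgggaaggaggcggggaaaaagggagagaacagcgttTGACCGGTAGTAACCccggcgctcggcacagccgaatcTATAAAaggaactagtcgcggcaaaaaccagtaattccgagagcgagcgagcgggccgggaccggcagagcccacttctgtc
Fabp7: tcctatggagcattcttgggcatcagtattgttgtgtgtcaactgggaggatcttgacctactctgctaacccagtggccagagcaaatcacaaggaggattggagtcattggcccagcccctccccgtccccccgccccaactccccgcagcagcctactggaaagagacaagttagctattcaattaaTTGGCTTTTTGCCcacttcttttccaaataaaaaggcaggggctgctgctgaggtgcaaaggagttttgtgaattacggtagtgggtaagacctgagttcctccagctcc
The motifs were chosen after the windows had been read. Searched on both strands, the liver X receptor element, TGACC and TAACC with any 5 bases between them, lay at bases -70 to -56 of Abca1, counted from the start site, and was held by 0.0538% of the 33469 RefSeq windows. These letters are those of the Abca1 element itself, so the share does not tell how common other forms of the element are. The nuclear factor I site, TTGGC and GCC with any 5 bases between them, lay at -60 to -48 of Fabp7 and was held by 1.2% of windows. CACGTG was held by 6.42% and TATAAA by 14.2% of windows, and the matches shown did not overlap. A match shows letters in a window and is no measurement of binding.

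Apoe was close to the floor at day 0 in all 5 clones and rose in all of them, but at different days. In Ctx8 it was 55.1, 26.6 and 20.9 at day 0, 1252, 1197 and 1249 at day 3 and 7829, 7756 and 7676 at day 7. In L2.3 the 3 cultures had 20.2, 19.8 and 21.0 at day 0, 1904, 1992 and 2002 at day 3 and 4888, 6109.6 and 6750.4 at day 7. In Ge2 the values were 17.0, 16.1 and 17.9 at day 0, 903, 963 and 976 at day 3 and 3306, 4065 and 3779.6 at day 7. In these 3 clones the days did not overlap, and every culture had left the floor far behind by day 3. L2.2 had 19.4 and 20.9 at day 0, 37.0, 31.8 and 22.7 at day 3 and 2022, 1257 and 1166 at day 7. Ge6 had 15.9, 13.0 and 13.5 at day 0, 25.1, 27.0 and 26.2 at day 3 and 701, 645 and 619.6 at day 7. In L2.2 and Ge6 every day 3 culture was still at low intensity, and all cultures were high at day 7.

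The day 3 minus day 0 change of Apoe was 6.60 ± 0.20 in L2.3, 5.80 ± 0.20 in Ge2 and 5.30 ± 0.20 in Ctx8 (log2 ± SE), against 0.89 ± 0.20 in Ge6 and 0.57 ± 0.22 in L2.2. All of these were called, the last at an adjusted p of 0.0338 that several alternatives raised above 0.05, up to 0.277 under a test against a 1.2-fold minimum. Without 1 array of L2.2 the estimate of that change lay between 0.41 and 0.77 and lost its call in 4 of these fits, which is most of them. Here and below, only arrays of the groups compared were left out, 1 at a time, so such fits are few. At day 3 Ge2 exceeded L2.2, the next clone in order, by 4.98 ± 0.20 (limma adjusted p = 6.61e-22). The day 7 minus day 3 change was 5.59 ± 0.20 in L2.2, 4.65 ± 0.20 in Ge6, 2.65 ± 0.20 in Ctx8, 1.97 ± 0.20 in Ge2 and 1.58 ± 0.20 in L2.3. The total change at day 7 against day 0 was 8.17 ± 0.20 in L2.3, 7.95 ± 0.20 in Ctx8, 7.77 ± 0.20 in Ge2, 6.15 ± 0.22 in L2.2 and 5.53 ± 0.20 in Ge6. Because the day 0 levels are near background, these changes depend on where the floor lies.

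By level at day 7, Apoe ran Ctx8, L2.3, Ge2, L2.2 and Ge6, with means of 7754, 5916, 3717, 1482 and 655. Ctx8 and L2.3 did not differ past the threshold, with 0.40 ± 0.20 (limma adjusted p = 0.0983), though this pair passed at 0.0137 when only its own groups were fitted. L2.3 exceeded Ge2 by 0.66 ± 0.20, Ge2 exceeded L2.2 by 1.37 ± 0.20 and L2.2 exceeded Ge6 by 1.13 ± 0.20, all called. The step from L2.3 to Ge2 did not pass a test against a 1.2-fold minimum (adjusted p = 0.0766). At day 0 Ctx8 stood above L2.3 by 0.62 ± 0.20 (adjusted p = 0.0316), a difference carried by the single Ctx8 culture at 55.1 whose neighbours were 26.6 and 20.9. Leaving out 1 array moved it to between 0.21 and 0.92, with the call lost in 4 of the fits, which is most of them. The other neighbours at day 0 were not called apart, with adjusted p between 0.328 and 0.982.

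Clu, the secreted chaperone and lipid carrier clusterin, rose in all 5 clones, and in Ge2 it was above the floor before withdrawal. In Ge2 it was 98.9, 92.6 and 95.1 at day 0, 1853, 1729 and 1821 at day 3 and 2872, 3181 and 3178 at day 7. Ctx8 had 20.6, 14.8 and 17.1 at day 0, 147, 176 and 169 at day 3 and 1604, 1574 and 1517 at day 7. L2.3 had 11.5, 14.9 and 16.1 at day 0, 149, 146 and 159 at day 3 and 1060.1, 1536 and 1651 at day 7. Every Ge2 culture was above every culture of the other clones on each of the 3 days. In Ge6 Clu was 16.5, 15.8 and 13.9 at day 0, 34.0, 37.2 and 38.2 at day 3 and 697, 703 and 645 at day 7. In L2.2 it was 14.2 and 11.9 at day 0, 46.2, 42.2 and 47.0 at day 3 and 405, 272 and 242 at day 7. As with Apoe, these last clones had low levels at day 3 and rose mainly between days 3 and 7.

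Ge2 exceeded Ctx8, its neighbour in the order for Clu, by 2.46 ± 0.14 at day 0, by 3.46 ± 0.14 at day 3 and by 0.97 ± 0.14 at day 7 (limma adjusted p = 4.21e-17, 1.54e-21 and 2.5e-07). Among the other clones at day 0 no neighbours were called apart, with adjusted p between 0.371 and 0.632. The change at day 7 against day 0 was 6.63 ± 0.14 in L2.3, 6.49 ± 0.14 in Ctx8, 5.47 ± 0.14 in Ge6, 5.01 ± 0.14 in Ge2 and 4.52 ± 0.16 in L2.2. At day 7 Ctx8 and L2.3 were not called apart (0.17 ± 0.14, adjusted p = 0.36), L2.3 exceeded Ge6 by 1.03 ± 0.14 and Ge6 exceeded L2.2 by 1.19 ± 0.14. The order of the last pair was thus opposite in the 2 genes, since for Apoe L2.2 exceeded Ge6. The second Clu probe set had a mean intensity of 10.6, under the floor, and its group means differed by at most 0.35 from day 0 at day 7; it was called higher at day 7 in Ge2 (0.30 ± 0.10) and L2.3 (0.35 ± 0.10) and not in the other clones.

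Abca1, the cholesterol and phospholipid exporter whose promoter is printed above, averaged 15.9 to 20.7 at day 0 in the 5 clones, near the floor, and rose in all of them by sizes that differed widely. In Ctx8 it was 21.9, 18.4 and 22.0 at day 0, 103, 146 and 179 at day 3 and 472, 481 and 442 at day 7. In L2.3 it was 14.2, 17.2 and 18.4 at day 0, 49.3, 58.1 and 56.2 at day 3 and 93.5, 146 and 138 at day 7. In Ge2 it was 17.9, 20.0 and 18.3 at day 0, 45.4, 38.4 and 35.8 at day 3 and 61.8, 66.2 and 82.6 at day 7. The 3 days did not overlap in any of these clones, and no Ctx8 culture at day 7 came near those of another clone. L2.2 had 20.5 and 14.9 at day 0, 32.9, 35.3 and 25.6 at day 3 and 60.9, 44.0 and 45.2 at day 7. Ge6 had 16.4, 15.5 and 15.7 at day 0, 23.7, 25.6 and 26.2 at day 3 and 31.0, 27.1 and 23.5 at day 7. In Ge6 days 3 and 7 overlapped while both lay above day 0.

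At day 0 the clones were not told apart for Abca1, with neighbours' adjusted p between 0.53 and 0.828. The change at day 7 against day 0 was 4.49 ± 0.17 in Ctx8, 2.90 ± 0.17 in L2.3, 1.90 ± 0.17 in Ge2, 1.50 ± 0.19 in L2.2 and 0.77 ± 0.17 in Ge6, all called. With the brighter probe set each step of the order at day 7 was called: Ctx8 over L2.3 by 1.91 ± 0.17, L2.3 over Ge2 by 0.83 ± 0.17, Ge2 over L2.2 by 0.49 ± 0.17 and L2.2 over Ge6 by 0.87 ± 0.17. The step from Ge2 to L2.2 (adjusted p = 0.0113) lost its call in 3 of the fits that left out 1 array and against a 1.2-fold minimum (adjusted p = 0.225). Ctx8 exceeded Ge6, at the other end of the order, by 4.10 ± 0.17, where the same pair was 3.57 ± 0.20 apart in Apoe. The second Abca1 probe set, dimmer with a mean of 15.1, was 66.7 on average at day 7 in Ctx8, against 8.53 at day 0 (2.96 ± 0.15). It was also called higher in Ge2 (0.66 ± 0.15) and L2.3 (0.59 ± 0.15), but not in L2.2 (0.39 ± 0.17, adjusted p = 0.0565) or Ge6 (0.01 ± 0.15, adjusted p = 0.949). Its means at day 7 were under the floor in these 4 clones, and in L2.3 1 culture was at 22.4 with the other two under the floor. With this probe set the steps at day 7 from Ge2 to L2.2 (0.28, adjusted p = 0.138) and from L2.2 to Ge6 (0.36, adjusted p = 0.055) were not called, and that from L2.3 to Ge2 turned sign (-0.077, adjusted p = 0.725).

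**Figure D1:**
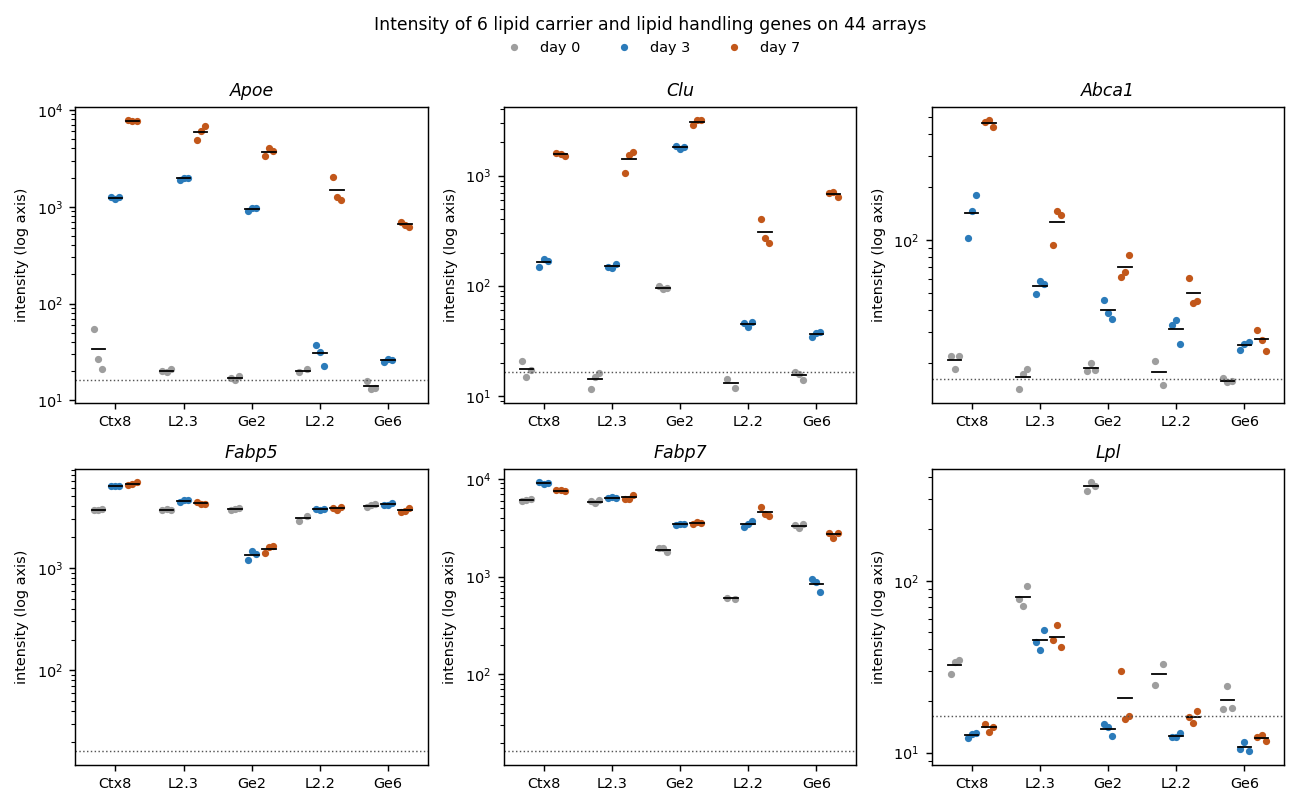
Intensity (log axis) of each gene by clone, with day 0 in grey, day 3 in blue and day 7 in orange; each point is 1 array, each black line a group mean, and the dotted line the floor at 16.3. Apoe at day 3 is at least 903 in every Ctx8, L2.3 and Ge2 array and at most 37.0 in every L2.2 and Ge6 array, while Lpl is under the floor in 7 of its 15 group means.

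Fabp5, which delivers fatty acids to the nucleus as well as to membranes, was bright in all groups, and its level fell in Ge2 and rose in Ctx8. In Ge2 it was 3683, 3753 and 3788 at day 0, 1190.3, 1449 and 1352 at day 3 and 1393, 1592 and 1623 at day 7. In Ctx8 it was 3630.1, 3685 and 3703 at day 0, 6308, 6312 and 6210.1 at day 3 and 6414, 6512 and 6793 at day 7. Later cultures of both clones lay wholly apart from day 0, on opposite sides of it. The change at day 7 against day 0 was -1.29 ± 0.06 in Ge2 and 0.84 ± 0.06 in Ctx8. At day 3 against day 0 it was -1.50 ± 0.06 in Ge2 and 0.77 ± 0.06 in Ctx8.

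The other clones had smaller changes of Fabp5. L2.3 had 3620.3, 3699 and 3634 at day 0, 4374, 4546 and 4605 at day 3 and 4373, 4230.4 and 4140.0 at day 7. L2.2 had 2872 and 3184 at day 0, 3703, 3685 and 3726 at day 3 and 3823, 3687 and 3927 at day 7. Ge6 had 3902, 4047 and 4169.5 at day 0, 4136, 4091 and 4269 at day 3 and 3519.7, 3579 and 3831 at day 7. The day 7 changes of 0.33 ± 0.06 in L2.2, 0.22 ± 0.06 in L2.3 and -0.15 ± 0.06 in Ge6 were called, but none passed a test against a 1.2-fold minimum. That of L2.3 lost its call with all arrays shifted to one median (0.11, adjusted p = 0.118). That of Ge6 lost it with quantile normalization (-0.10, adjusted p = 0.146) and in 4, or most, of the fits that left out 1 array. At day 0 the steps from Ge6 to Ge2, Ctx8 and L2.3 were not called, with adjusted p between 0.145 and 0.961, and L2.3 exceeded L2.2 by 0.27 ± 0.06 (adjusted p = 0.000665), a call lost in 1 fit without 1 array and against a 1.2-fold minimum. At day 7 Ge6 exceeded Ge2 by 1.25 ± 0.06 and Ctx8 exceeded L2.3 by 0.63 ± 0.06.

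Fabp7, the radial glial carrier whose promoter window holds the nuclear factor I site, rose in L2.2 and fell in Ge6 by day 3, and then rose again in Ge6. L2.2 had 604 and 590.2 at day 0, 3257, 3488 and 3696 at day 3 and 5209.6, 4363 and 4202 at day 7. Ge6 had 3349, 3148 and 3452 at day 0, 947, 879.6 and 701 at day 3 and 2821, 2502 and 2777 at day 7. The 3 days did not overlap in either clone: in L2.2 each later day was higher, and in Ge6 day 3 was far below both other days. The change in L2.2 was 2.54 ± 0.09 at day 3 and 2.94 ± 0.09 at day 7, both against day 0. In Ge6 the day 3 minus day 0 change was -1.99 ± 0.08, the day 7 minus day 3 change was 1.69 ± 0.08 (limma adjusted p = 3.62e-19) and the day 7 minus day 0 change was -0.30 ± 0.08.

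In the other clones the day 3 changes of Fabp7 were smaller than in L2.2 and Ge6, at 0.86 ± 0.08 in Ge2, 0.57 ± 0.08 in Ctx8 and 0.13 ± 0.08 in L2.3. Ge2 had 1953, 1949 and 1781 at day 0, 3364, 3470.0 and 3464 at day 3 and 3431, 3641 and 3577 at day 7. Ctx8 had 5969, 6148 and 6159 at day 0, 9210.5, 8941 and 9041 at day 3 and 7612, 7713 and 7453 at day 7. L2.3 had 5905, 5617 and 6077 at day 0, 6308, 6514 and 6369 at day 3 and 6275, 6292 and 6922 at day 7. Ge2 was higher at both later days, Ctx8 was highest at day 3, and in L2.3 the later cultures were above those of day 0 by a margin that was not called. The day 7 minus day 0 changes were 0.91 ± 0.08 in Ge2, 0.32 ± 0.08 in Ctx8 and 0.15 ± 0.08 in L2.3 (adjusted p = 0.117), and that of Ctx8 was 0.15 (adjusted p = 0.072) with all arrays shifted to one median. At day 0 the order was Ctx8, L2.3, Ge6, Ge2 and L2.2, with steps of 0.06 ± 0.08 (not called), 0.82 ± 0.08, 0.81 ± 0.08 and 1.66 ± 0.09. At day 7 it was Ctx8, L2.3, L2.2, Ge2 and Ge6, with called steps of 0.23 ± 0.08, 0.51 ± 0.08, 0.37 ± 0.08 and 0.40 ± 0.08. That from Ctx8 to L2.3 lost its call in 2 of the fits that left out 1 array and with one median for all arrays (0.18, adjusted p = 0.0532), and only that from L2.3 to L2.2 passed a test against a 1.2-fold minimum. L2.2 thus went up the order, to lie above Ge2 and Ge6, both of which exceeded it at day 0.

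Lpl, the lipase that releases fatty acids from lipoproteins, fell in all 5 clones, and its highest level was in Ge2 with FGF2 present. In Ge2 it was 333, 373 and 356 at day 0, 14.8, 14.1 and 12.5 at day 3 and 29.8, 15.7 and 16.4 at day 7. In L2.3 it was 78.5, 71.0 and 93.1 at day 0, 44.1, 39.6 and 52.0 at day 3 and 45.0, 55.5 and 41.2 at day 7. Ge2 fell to the neighbourhood of the floor, with 1 day 7 culture at 29.8, whereas every L2.3 culture stayed above the floor, and days 3 and 7 overlapped there. Ctx8 had 28.7, 33.6 and 34.4 at day 0, 12.2, 12.9 and 13.0 at day 3 and 14.7, 13.3 and 14.1 at day 7. L2.2 had 24.6 and 32.9 at day 0, 12.3, 12.4 and 12.9 at day 3 and 16.2, 14.8 and 17.4 at day 7. Ge6 had 17.9, 24.6 and 18.2 at day 0, 10.5, 11.6 and 10.2 at day 3 and 12.3, 12.7 and 11.7 at day 7. In these clones the day 0 cultures were already dim and the later cultures near or under the floor, so that the fall is bounded by background.

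The change of Lpl at day 3 against day 0 was -4.68 ± 0.15 in Ge2, -1.34 ± 0.15 in Ctx8, -1.18 ± 0.17 in L2.2, -0.90 ± 0.15 in Ge6 and -0.84 ± 0.15 in L2.3. At day 7 it was -4.16 ± 0.15 in Ge2 and between -1.20 and -0.71 in the other clones. The rise in Ge2 from day 3 to day 7 (0.52 ± 0.15, adjusted p = 0.016) rested on the culture at 29.8; without it the change was 0.23 (adjusted p = 0.283). At day 0 Ge2 exceeded L2.3 by 2.14 ± 0.15 and L2.3 exceeded Ctx8 by 1.32 ± 0.15, while at day 7 L2.3 was the highest clone and exceeded Ge2 by 1.25 ± 0.15 (limma adjusted p = 1.08e-08). The remaining neighbours at day 7 were not called apart, with adjusted p between 0.109 and 0.299.

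At day 7 against day 0 all 6 members were called in Ctx8, Ge2, Ge6 and L2.2 and 5 in L2.3, where Fabp7 was not. The background was high: 55.9% of all genes were called in Ctx8, 60.3% in Ge2, 59% in Ge6, 51.8% in L2.2 and 48.9% in L2.3. At day 3 against day 0 6 members were called in Ctx8, Ge2 and L2.2, where 53.7%, 60% and 47.5% of all genes were, and 5 in Ge6 and L2.3, where 49.1% and 46.3% were. Between days 3 and 7 the members called were 4 in Ctx8 (22.3% of all genes), 5 in Ge2 (16.7%), 4 in Ge6 (44.5%), 4 in L2.2 (17.8%) and 3 in L2.3 (15.5%). Apoe and Clu were called higher in all 5 clones in each of these comparisons. The change from day 0 differed between clones for each of the 6 members at day 3 and at day 7 by an F test over the 5 clones, which 68.2% and 71.6% of all genes also passed. Between clones, 12.8% of all genes were called apart for Ctx8 and L2.3 at day 0, the lowest share of the pairs described. For the other pairs at day 0 the share was 48.2% for Ctx8 and Ge2, 40.9% for Ctx8 and Ge6, 45.1% for Ctx8 and L2.2, 35.6% for Ge2 and Ge6, 37.6% for Ge2 and L2.2, 46.2% for Ge2 and L2.3, 37.4% for Ge6 and L2.2, 42% for Ge6 and L2.3 and 43.1% for L2.2 and L2.3. At day 3 it was 54.6% for Ge2 and L2.2 and 53.4% for Ctx8 and Ge2. At day 7 it was 53.3% for Ctx8 and Ge2, 56.4% for Ctx8 and Ge6, 52.5% for Ctx8 and L2.2, 47.3% for Ctx8 and L2.3, 58.6% for Ge2 and Ge6, 55.2% for Ge2 and L2.2, 54.1% for Ge2 and L2.3, 45.1% for Ge6 and L2.2, 51.9% for Ge6 and L2.3 and 37.7% for L2.2 and L2.3. At these background shares a call says little about a member, and the sizes of the changes carry more.

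**Figure D2:**
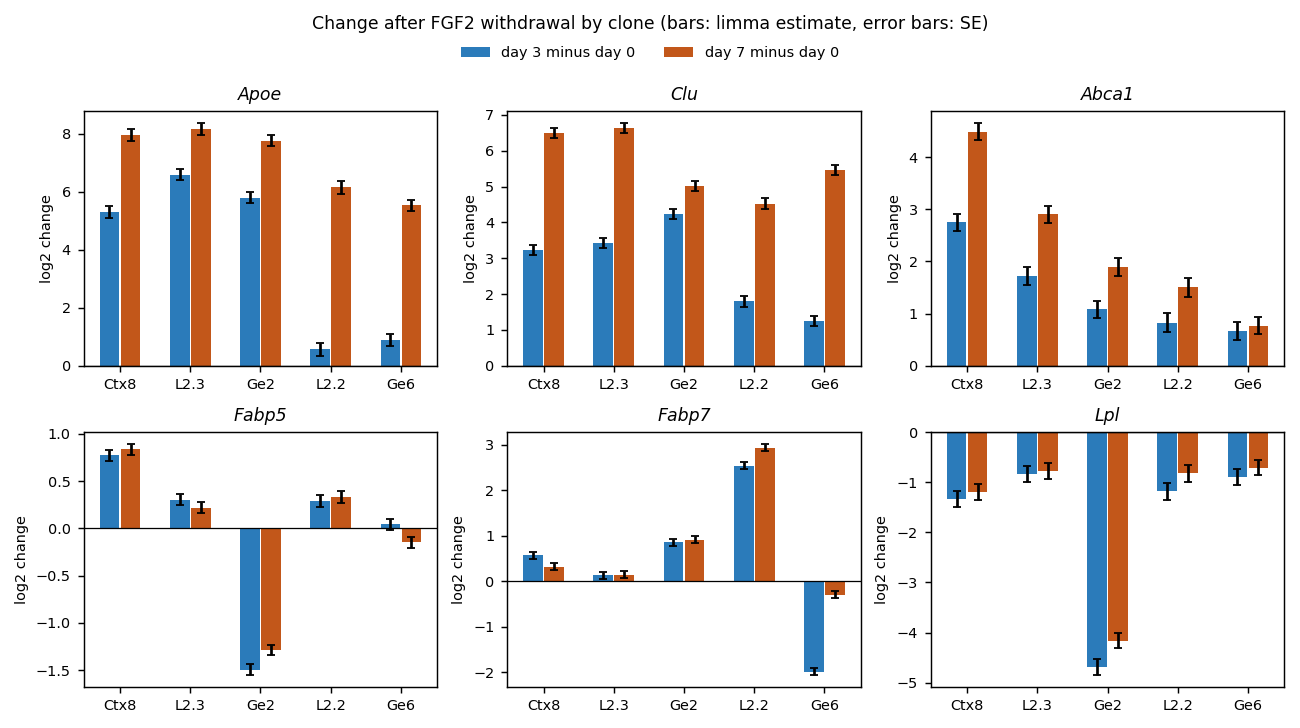
Change in log2 intensity (vertical axis) by clone at day 3 (blue) and day 7 (orange) against day 0; bars are limma estimates and error bars their SE. Fabp5 falls by 1.29 in Ge2 at day 7 where it is 0.84 higher in Ctx8, and Fabp7 is 2.94 higher in L2.2 where it falls by 0.30 in Ge6.

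Over the 15 group means of log2 intensity Apoe and Clu had a Pearson r of 0.888, Apoe and Abca1 0.850 and Clu and Abca1 0.702. Fabp5 had r between -0.29 and 0.33 with the other members and Lpl between -0.31 and 0.04. The 15 means come from 5 clones and 3 days on the same arrays, so these are descriptions. Among the 3013 genes whose group means spanned at least 2 in log2, those most like Apoe were Aqp4 (0.954), Cd81 (0.954) and Gstm7 (0.952). Those most like Clu were A2m (0.961), Tmem205 (0.942) and Nsmf (0.921). The nearest to Abca1 were Plcd4 (0.959), Acot2 (0.957) and Slc35a2 (0.953). For Fabp7 they were Rab31 (0.940), Gpm6b (0.924) and Tnik (0.893), for Fabp5 Gja1 (0.916), Chfr (0.903) and Oxct1 (0.902), and for Lpl Tnfsf13 (0.892), Msrb2 (0.880) and Adgre5 (0.878). Aqp4 encodes the astrocyte water channel and Gja1 the gap junction protein connexin 43.

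Of 12 measured astrocyte markers, 11 were called higher and 0 lower at day 7 against day 0 in Ctx8, 10 and 0 in L2.3, 8 and 1 in Ge2, 8 and 0 in L2.2 and 8 and 2 in Ge6. The share of all genes called higher was 25% in Ctx8, 22% in L2.3, 27% in Ge2, 21.5% in L2.2 and 24% in Ge6. Gja1 fell in Ge2 to 14.2, against 896 at day 0, and in Ge6 to 659, against 911, and Slc1a3, an astrocyte glutamate transporter, fell in Ge6 (-0.48 ± 0.09). At day 7 the list had a summed intensity of 17770 to 18813 in Ctx8, 14174 to 20244 in L2.3, 12212 to 12650 in Ge2, 6197 to 8368 in L2.2 and 2495 to 2570 in Ge6. By its mean sum it ran in the same order of clones as Apoe, but the Ctx8 sums lay within the range of those of L2.3. At day 0 the sums were 2191 to 2265 in Ctx8, 1644 to 1729 in L2.3, 2526 to 2568 in Ge2, 1020 to 1081 in L2.2 and 1373 to 1491 in Ge6. Gfap, the intermediate filament of astrocytes, averaged 343 at day 3 in L2.2, where Apoe was still at 30.5, and 129 in Ctx8, where Apoe was at 1233. Between these clones the list as a whole went the other way at day 3. Its sum was 2824 to 3235 in L2.2 and 9367 to 9522 in Ctx8. In the other clones it was 7602 to 8151 in L2.3, 9696 to 9965 in Ge2 and 1552 to 1617 in Ge6. By mean sum the day 3 order was thus Ge2, Ctx8, L2.3, L2.2 and Ge6. For Apoe it was L2.3, Ctx8, Ge2, L2.2 and Ge6 on that day. Of 14 microglial markers 1 to 3 were above the floor in any group, their sum was 162 to 193 on every array, and the brightest, Cd68, averaged at most 23.9. The 12 mesenchymal and endothelial markers summed to 135 to 273, highest in L2.2 at day 7. Oligodendrocyte markers summed to 13490 to 14206 at day 7 in Ctx8 and 4138 to 4867 in L2.3, against 364 to 380 in Ge2. At day 0 their sums were 6375 to 6620 in Ctx8, 5971 to 6111 in L2.3 and 274 to 285 in Ge2. In L2.3 they were thus lower at day 7 than at day 0, with 8314 to 10273 at day 3. Neuronal markers summed to 14064 to 14601 at day 7 in Ge6 and 7997 to 8972 in L2.2, against 2304 to 2534 in Ge2. On that day they summed to 6394 to 6765 in L2.3 and 3761 to 4035 in Ctx8. Schwann cell markers ran from 124 to 2127, with Pmp22 the brightest in every group, and precursor markers from 3089 to 11254. The part of these cell types in the members' levels was not tested.

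The other genes of lipid transport were counted by list, with the calls at day 7 against day 0. A gene is named mainly in clones where its change was among the largest of its list, and may have been called in others. Of all genes 25% were called higher and 31% lower in Ctx8, 22% and 26.9% in L2.3, 27% and 33.3% in Ge2, 21.5% and 30.3% in L2.2 and 24% and 35% in Ge6. Of 16 measured genes of lipoprotein particles and cholesterol export, 10 rose and 3 fell in Ctx8, 6 and 2 in L2.3, 7 and 4 in Ge2, 4 and 2 in L2.2 and 6 and 4 in Ge6. The median change was 0.71 in Ctx8, 0.13 in L2.3, 0.19 in Ge2, 0.14 in L2.2 and 0.13 in Ge6, beside medians of all genes between -0.07 and -0.05. Lcat, the enzyme that esterifies cholesterol on lipoproteins, rose in Ctx8 to 496 on average, against 56.1 at day 0 (3.15 ± 0.16), and likewise in Ge2 (3.08 ± 0.16), L2.3 (2.43 ± 0.16) and L2.2 (1.64 ± 0.18), whereas it fell in Ge6 (-0.89 ± 0.16). Apoc1, an apolipoprotein whose gene lies beside Apoe, rose in Ctx8 (3.19 ± 0.16), L2.3 (3.15 ± 0.16) and Ge2 (1.90 ± 0.16). In L2.2 and Ge6 Apoc1 was 10.7 and 9.82 at day 7 and was not called, although Apoe rose there.

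Several genes close to Abca1 in the export pathway took other courses. Abcg1, which exports cholesterol to mature particles, rose in Ge6 (2.62 ± 0.11) and L2.2 (1.12 ± 0.13) and fell in Ge2 (-2.29 ± 0.11). It was called higher in 3 clones in all and lower in 1. Ge6 had the lowest Abca1 of the 5 clones at day 7 and the largest of these Abcg1 changes. Nr1h3, the liver X receptor alpha, fell in Ge2 to 11.8 on average, against 100.2 at day 0 (-3.06 ± 0.13), and was under the floor at day 7 in all 5 clones. Nr1h2, the other liver X receptor gene of the list, was called higher in all 5 clones, by 0.38 to 0.76. Its highest mean at day 7 was 281. Abca2, a lysosomal lipid transporter, rose in Ge6 (0.81 ± 0.13) and was called higher in 4 clones, by up to 1.55. Soat1, which stores cholesterol as esters, and Scarb1, a receptor for high-density lipoprotein, fell in all 5 clones, with changes of -2.16 ± 0.10 and -1.67 ± 0.11 in Ge6. The brightest gene of the list called in no clone was Apoa1, at most 11.8 at day 7. With all arrays shifted to one median the splits were 4 rising and 4 falling in L2.2 and 5 and 5 in Ge6, and the list's medians were 0.55 in Ctx8, 0.05 in Ge2, 0.02 in L2.3 and L2.2 and -0.02 in Ge6.

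Among 9 measured lipoprotein receptor genes and their regulators, 4 rose and 0 fell in Ctx8, 4 and 1 in L2.3, 5 and 3 in Ge2, 3 and 3 in L2.2 and 3 and 4 in Ge6, and with one median for all arrays the splits were 4 and 2 in Ctx8, 2 and 2 in L2.3 and 2 and 5 in L2.2. The median changes were 0.12 in Ctx8, 0.15 in L2.3, 0.92 in Ge2, -0.28 in L2.2 and -0.11 in Ge6, that of Ctx8 being -0.04 with one median. Sorl1, a sorting receptor that binds apolipoprotein E, rose in all 5 clones: by 6.18 ± 0.12 in Ge2, where it averaged 1868 at day 7 against 25.7 at day 0, 6.10 ± 0.12 in Ctx8, 3.95 ± 0.12 in L2.3, 2.83 ± 0.12 in Ge6 and 2.55 ± 0.13 in L2.2. Lrp1, the main endocytic receptor for apolipoprotein E, rose most in Ge2 (3.06 ± 0.11) and Ge6 (2.36 ± 0.11), also in L2.2 (1.85 ± 0.12). Vldlr, the very low density lipoprotein receptor, fell in L2.2 (-2.52 ± 0.12), Ge2 (-2.20 ± 0.11), L2.3 (-1.98 ± 0.11) and Ge6 (-1.62 ± 0.11), and in Ctx8 its change was 0.06 ± 0.11. Lrp4 rose in Ctx8 (2.21 ± 0.14) and fell in Ge6 (-1.06 ± 0.14), and Lrp2, the receptor megalin, fell in L2.2 (-2.07 ± 0.16). Lrp2 was called lower in 2 clones but higher in Ge2, by 2.99. Sort1, another sorting receptor, fell in Ge2 (-0.51 ± 0.09) and was called higher in 2 clones.

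Of 20 measured genes of fatty acid binding, uptake and storage, 10 rose and 6 fell in Ctx8, 6 and 6 in L2.3, 6 and 6 in Ge2, 6 and 7 in L2.2 and 5 and 9 in Ge6. With one median for all arrays these were 9 and 9 in Ctx8 and 6 and 11 in L2.3. Acsbg1, an acyl-CoA synthetase of brain and adrenal gland, rose by 4.45 ± 0.17 in L2.3, 4.35 ± 0.17 in Ctx8, 3.20 ± 0.19 in L2.2 and 1.23 ± 0.17 in Ge6, but was 25.7 on average in Ge2 at day 7, against 24.3 at day 0 (adjusted p = 0.872). Slc27a1, a fatty acid transport protein, rose most in Ge2, by 2.94 ± 0.10, and was called higher in 4 clones and lower in 1. Acsl5, another acyl-CoA synthetase, fell in all 5 clones, most in Ctx8 (-3.13 ± 0.12) and L2.3 (-2.95 ± 0.12). Acsl4 also fell in all 5 clones, with -1.38 ± 0.11 in Ge2 and a lowest change of -1.48 in another clone. Angptl4, a secreted inhibitor of lipoprotein lipase, rose in all 5 clones, by 3.99 ± 0.16 in Ctx8, 1.93 ± 0.16 in Ge2, 1.49 ± 0.17 in L2.2, 1.05 ± 0.16 in Ge6 and 0.85 ± 0.16 in L2.3. Plin2, which coats lipid droplets, fell in Ge6 (-1.97 ± 0.14) and L2.2 (-1.22 ± 0.15), and Fabp3, a relative of Fabp5 and Fabp7, fell in L2.3 (-2.47 ± 0.12) and Ctx8 (-1.87 ± 0.12). Acsl6 rose in L2.3 (1.13 ± 0.12), and Fabp2 was called in no clone, at most 11.0 at day 7.

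**Figure D3:**
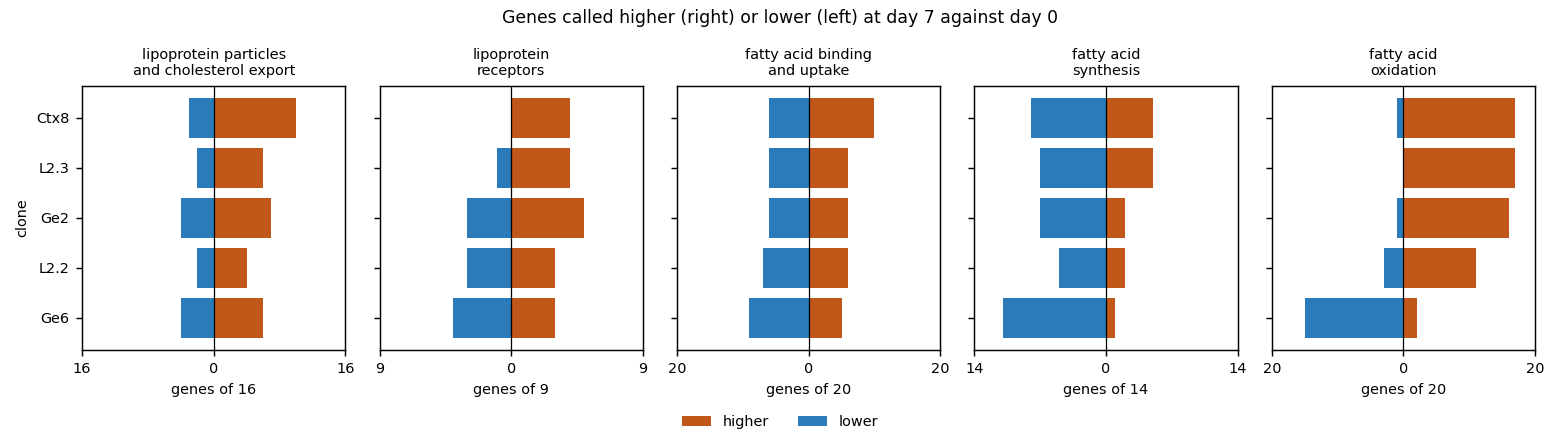
Number of genes of each lipid list called higher (orange, to the right) or lower (blue, to the left) at day 7 against day 0 (horizontal axis, up to the number measured) in each clone. Fatty acid oxidation has 15 genes lower and 2 higher in Ge6, against 17 higher in Ctx8 and in L2.3.

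Fatty acid synthesis genes were called lower more often than higher, as were all genes. Of 14 measured, 5 rose and 8 fell in Ctx8, 5 and 7 in L2.3, 2 and 7 in Ge2, 2 and 5 in L2.2 and 1 and 11 in Ge6, with medians of -0.20, -0.19, -0.23, -0.10 and -0.72 in the same order of clones. With one median for all arrays the splits were 2 and 11 in Ge2 and 2 and 8 in L2.2. Scd, a stearoyl-CoA desaturase, fell in all 5 clones, in Ge6 to 76.8, against 938 at day 0 (-3.61 ± 0.08), while its relative Scd2 rose in Ge2 (0.39 ± 0.07) and L2.2 (0.34 ± 0.07). In all, Scd2 was called higher in 4 clones and lower in 1. Srebf1, the sterol regulatory factor that drives this pathway and is itself a liver X receptor target, rose in Ctx8 (2.07 ± 0.12) and L2.3 (1.61 ± 0.12) and fell in Ge6 (-2.48 ± 0.12) and L2.2 (-1.12 ± 0.14). The desaturase family gene Fads3 rose in Ge2 (2.66 ± 0.14), Ctx8 (1.62 ± 0.14) and L2.3 (1.20 ± 0.14). Among the elongases Elovl2 rose in L2.2 (1.55 ± 0.12) and Ge6 (1.39 ± 0.11), and Elovl6 fell in Ctx8 (-1.31 ± 0.08) and L2.3 (-0.90 ± 0.08). Elovl1 fell in all 5 clones, most in Ge6 (-1.75), and by -0.93 ± 0.07 in L2.3 and -0.92 ± 0.07 in Ge2.

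Fatty acid oxidation genes rose in most clones and fell in Ge6. Of 20 measured, 17 rose and 1 fell in Ctx8, 17 and 0 in L2.3, 16 and 1 in Ge2, 11 and 3 in L2.2 and 2 and 15 in Ge6. The medians were 0.65 in Ctx8, 0.57 in L2.3, 0.47 in Ge2, 0.25 in L2.2 and -0.38 in Ge6, beside -0.06 for all genes in Ctx8, Ge2 and Ge6, -0.05 in L2.3 and -0.07 in L2.2. With one median for all arrays the splits were 14 and 3 in Ctx8, 16 and 2 in L2.3, 13 and 3 in Ge2, 7 and 5 in L2.2 and 2 and 18 in Ge6, and the medians of all genes moved down to between -0.22 and -0.15. Cpt1a, which starts the import of fatty acids into mitochondria, rose in L2.3 by 1.90 ± 0.09 and in Ctx8 to 465 on average, against 101 at day 0. Acaa2, which carries out the last step of each round of oxidation, rose in Ctx8 (2.15 ± 0.08), L2.3 (2.15 ± 0.08), Ge2 (1.96 ± 0.08) and L2.2 (0.60 ± 0.09). In Ge6 Cpt2, the inner membrane enzyme of the same import route, fell to 15.6, against 109.7 at day 0 (-2.82 ± 0.11), and Acadm, the medium-chain dehydrogenase, fell (-1.99 ± 0.09). The genes that rose in Ge6 were Cpt1c (2.03 ± 0.13), the neuronal member of the Cpt1 family, and Cpt1b (1.61 ± 0.14), its muscle member. Both were called higher in all 5 clones, and Cpt1c rose more in Ge2 (2.39 ± 0.13) than in Ge6. Acads, the short-chain dehydrogenase, fell in Ge6 (-1.43), Ge2 (-0.91 ± 0.11), L2.2 (-0.63 ± 0.12) and Ctx8 (-0.31 ± 0.11) and rose in L2.3 (0.53). Ppara, the receptor for fatty acids that is known to regulate many of these genes, was called in no clone, at most 11.5 at day 7.

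**Figure D4:**
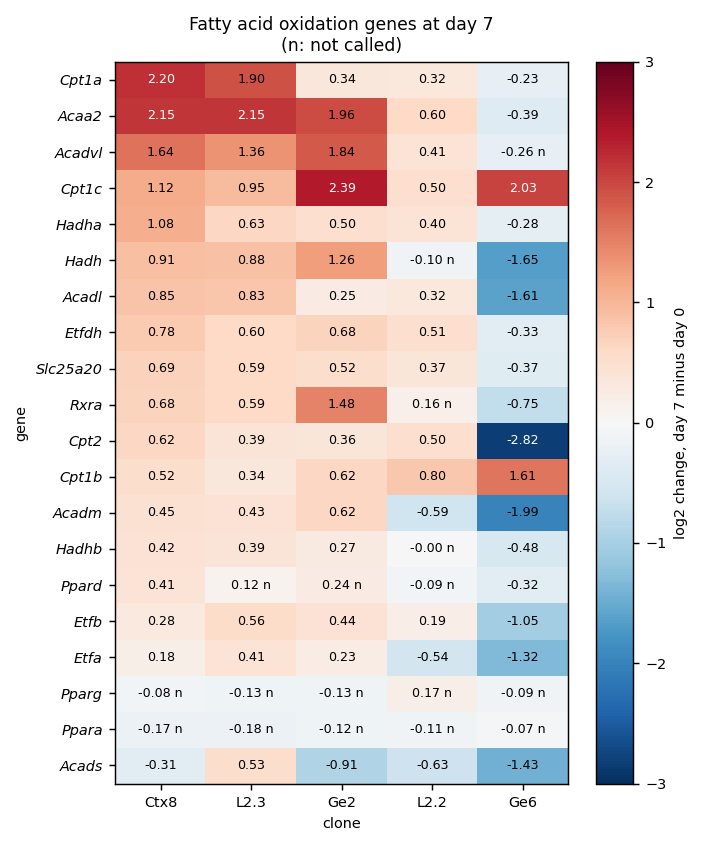
Change in log2 intensity at day 7 against day 0 of the 20 measured fatty acid oxidation genes (rows, ordered by their change in Ctx8) in each clone (columns), red for higher and blue for lower, with n for not called. The Ge6 column is blue except for Cpt1c (2.03) and Cpt1b (1.61).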

How the data were processed

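RNA of 44 cultures was hybridised to 1 Affymetrix array each. The deposited values are linear intensities per probe set, made by the authors with GCOS and RMA, per the submitters' processing notes; the sources used here give no version, setting or batch. RMA scales arrays to each other, so a change in total RNA per cell would not show. Log2 was taken with no pseudocount. Groups came from the sample titles. Of 24183 probe sets, 17547 named 1 gene, 213 several and 6423 were unnamed; symbols were updated by gene ID for 17450.

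One mean per group was fitted to 12749 genes with limma 3.58.1 in R 4.3.3 (lmFit, eBayes; 29 residual and 5.00 prior degrees of freedom), the script being tested on simulated data. The p-values are two-sided, with Benjamini-Hochberg adjustment across the 12749 genes. Replicates are sister cultures, so p-values measure the spread between cultures of 1 clone. The number of arrays limits the precision. No 2 arrays held identical values.

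The 6 members and all lists were chosen with earlier results of these data known. Named beside the members were, per lipid list and clone, up to 2 genes with the largest rises and 2 with the largest falls among those called at day 7, the brightest gene called in no clone, the 3 genes most like each member, and cell type markers; other values of a gene named this way were added. Nr1h2 was added outside this rule, as the other liver X receptor gene of its list. Replicate numbers were checked for pairing: of 43 pairs of same-numbered arrays, 3 had correlated deviations above 0.1, so the numbers were not used to pair arrays. Alternatives were other normalizations, probe sets, scales, variance models, a dim gene filter, a 1.2-fold minimum, smaller fits, the replicate block and leaving out arrays.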

Additional observations from a re-analysis of the deposited data

Results flagged for a closer look

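The change from day 0 differed between the 5 clones for each of the 6 genes by limma's F test, and these differences drew attention. At day 3 the adjusted p was 3.35e-21 for Apoe, 3.1e-15 for Clu, 3.06e-09 for Abca1, 4.43e-22 for Fabp5, 1e-25 for Fabp7 and 9.77e-18 for Lpl. At day 7 it was 5.96e-11 for Apoe, 1.21e-11 for Clu, 2.57e-15 for Abca1, 3.9e-21 for Fabp5, 1.91e-22 for Fabp7 and 1.36e-16 for Lpl.

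The clones lie on opposite sides of 0 at day 7 for Fabp5, which fell by 1.29 in Ge2 and was 0.84 higher in Ctx8, and for Fabp7, which fell by 0.30 in Ge6 and was 2.94 higher in L2.2. For Apoe, Clu, Abca1 and Lpl the direction was the same in all 5 clones and the size differed. The F test passed for 68.2% of all genes at day 3 and for 71.6% at day 7, so passing it is no mark of these 6 genes. With groups of 2 or 3 arrays, single arrays were not tested against the rest of their group.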

How the results depend on the processing

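The counts of members called at day 7 against day 0 stayed within 1.5 times under all 84 values of the alternatives. This limit is wide for so few members, so staying within it says little about stability. The 1.2-fold minimum ended the calls of both Fabp5 and Fabp7 in Ge6, and the count there still stayed within the limit. Only Abca1 and Clu have a second probe set, so that alternative gave no count of all members. Of 1548 values for changes between days, 1482 kept direction and side of the threshold, 53 lost the call, 1 gained it and 12 turned sign; for differences between clones 827 of 893 did, 38 lost it, 5 gained it and 23 turned sign. The replicate block changed no call among 142 such values. The F test lost its call once, for Clu at day 3 with the second probe set (F of 1.955, adjusted p = 0.171).

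Of the day 7 changes, calls were lost with the second probe set for Abca1 in Ge6 (0.015) and L2.2 (0.39) and for Clu in Ctx8 (0.12) and Ge6 (0.17). The 1.2-fold minimum ended those of Fabp5 in L2.2 (0.33), L2.3 (0.22) and Ge6 (-0.15) and of Fabp7 in Ctx8 (0.32) and Ge6 (-0.30). One median for all arrays ended those of Fabp5 in L2.3 (0.11) and Fabp7 in Ctx8 (0.15). Fabp5 in Ge6 also lost its call with quantile normalization (-0.10), with only its groups fitted (-0.15) and without 1 array (-0.19 to -0.13).

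These values turned sign, some of them large changes on the brighter probe set. With the second probe set, Clu was -0.058 at day 3 in Ge2, and in L2.2 -0.23 at day 3 and -0.18 at day 7, each against day 0, and Abca1 was -0.012 at day 3 in L2.2 and -0.0049 from day 3 to day 7 in Ge6. That last change was -0.0078 with quantile normalization and -0.0058 with one median for all arrays. With quantile normalization Fabp7 from day 3 to day 7 was -0.0073 in Ge2 and -0.023 in L2.3. Without 1 array that of Fabp7 in L2.3 ran from -0.026 to 0.045 and that of Lpl in L2.3 from -0.062 to 0.16.

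Between clones the second probe set gave, for Abca1, -0.14 (Ctx8 minus Ge2), -0.0059 (L2.2 minus L2.3) and -0.0097 (L2.3 minus Ge6) at day 0 and -0.077 (L2.3 minus Ge2) at day 7, and for Clu -0.22 (Ctx8 minus L2.3) at day 7 and -0.017 (Ge6 minus L2.3) and -0.15 (L2.3 minus L2.2) at day 0. It also ended the called differences of Clu for Ge2 over Ctx8 at day 0 (0.16) and day 3 (0.011), and for L2.3 over Ge6 (0.20) and Ge6 over L2.2 (0.18) at day 7. Averaging both probe sets gave -0.026 for Clu in Ctx8 minus L2.3 at day 7 and -0.020 in L2.3 minus L2.2 at day 0. One median for all arrays gave -0.0031 for Abca1 in L2.3 minus Ge6 and -0.00027 for Apoe in L2.3 minus L2.2, both at day 0, and quantile normalization gave -0.030 for Fabp5 in Ge2 minus Ctx8 at day 0.

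Without 1 array, at day 0, Abca1 ran from -0.13 to 0.33 (Ge2 minus L2.2), from -0.15 to 0.31 (L2.2 minus L2.3) and from -0.020 to 0.17 (L2.3 minus Ge6), Apoe from -0.046 to 0.062 (L2.3 minus L2.2), Clu from -0.0076 to 0.24 (Ge6 minus L2.3) and from -0.018 to 0.25 (L2.3 minus L2.2) and Lpl from -0.034 to 0.38 (Ctx8 minus L2.2). At day 7 Clu ran from -0.025 to 0.29 (Ctx8 minus L2.3) and Lpl from -0.0022 to 0.46 (Ge2 minus L2.2). The cause of these changes was not tested. Levels near 16.3 limit Lpl after day 0 and Apoe, Clu and Abca1 at day 0.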
